A study of Sus scrofa domesticus with 11 samples.

Results

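The liver's bile ducts are lined by cholangiocytes, an epithelium that makes up a small share of the organ. The data described here are the mRNA levels of 8 genes commonly used to mark these cells: KRT7, EPCAM, SOX9, SPP1, CFTR, CD24, CLDN4 and ELF3. They were taken by gene symbol from the deposited table, which holds 22029 genes, and each symbol matched 1 gene identifier. The table comes from liver pieces of Yorkshire piglets that were delivered preterm, received parenteral nutrition (nutrients given into a vein) and were sacrificed on day of life 15. SEFA-6179, a compound under a code name, was given at 48 mg/kg to 5 piglets, and the volume-matched vehicle, labelled MCT, was given at 3 ml/kg to 6. Preterm birth, breed and parenteral nutrition were common to both groups, and no animal without parenteral nutrition was part of the comparison. The submitters number the libraries within each group and describe the tissue as taken from animals at sacrifice, and every library was counted as 1 piglet.

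Cholangiocytes arise from the same fetal precursor cells as hepatocytes. Contact with the portal vein and Notch signalling turn some of these precursors toward the duct fate, with SOX9 among the earliest transcription factors of that fate. Mature ducts modify bile: the chloride channel CFTR opens after secretin has raised cyclic AMP, chloride is exchanged for bicarbonate, and water follows through aquaporins. In cholestasis, including the liver disease that accompanies long parenteral nutrition, duct-like cells often multiply, a process known as ductular reaction. In bulk liver RNA a lower level of such a marker can come from fewer cells of the type or from less RNA per cell. Other cells that make the same gene can also change its level, and bulk RNA cannot tell these apart.

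None of the 8 genes is exclusive to ducts. EPCAM, CD24 and SOX9 also mark immature liver cells, SPP1 is made by macrophages as well, CD24 is found on B cells, and CLDN4 and ELF3 are shared by many epithelia. Total counts ran from 15974977 to 23416071 per library. All 8 genes passed the low-count filter of edgeR, none had an average of fewer than 77.0 counts per library, and none overlapped another gene of the deposited table. Positions below are the table's own, in a genome build that the sources used here do not give. Levels are given as CPM, a count relative to the library total after TMM scaling (which evens out differences in RNA composition), for 1 gene across libraries, and as deposited FPKM, which also divides by gene length, for comparing genes with each other.

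Every one of the 8 markers had a lower mean in SEFA-6179 livers than in MCT livers, and none of the 8 differences passed the threshold of 0.05 for the adjusted p of edgeR's quasi-likelihood test. SOX9 was 3.04-fold lower, CD24 2.49-fold, EPCAM 2.40-fold and KRT7 2.00-fold, while ELF3, SPP1, CFTR and CLDN4 were between 1.36-fold and 1.47-fold lower. The test called 30 of 13671 genes, or 0.219%, and a count of 0 in 8 is near that share. At an unadjusted p below 0.05, 4 of the 8 were lower (CD24, SOX9, EPCAM and KRT7), where 5.52% of all tested genes were. The median log2 fold change was -0.77 over the 8 genes and -0.0015 over all tested genes. The genes were chosen with earlier results of these data known, so their common direction is a description of them and no independent support.

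The call depended on the test. DESeq2's Wald test, run on the same counts, gave adjusted p of 0.000362 for CD24, 0.0106 for SOX9 and 0.0185 for EPCAM, and called 1.6% of the genes to which it gave an adjusted p. When DESeq2 was run without 1 library, CD24 was called in all 11 fits. Over all genes those fits called from 148 of 15942 (without SEFA-6179 replicate 5) to 368 of 14685 (without MCT replicate 6). SOX9 was no longer called when either SEFA-6179 replicate 5 or replicate 2 of MCT was dropped, nor was EPCAM, which was also not called when SEFA-6179 replicate 1 or 4 was. In the authors' deposited table the same 3 genes had adjusted p of 0.000333, 0.00979 and 0.017. There 139 of all 22029 genes (0.631%) were called lower in SEFA-6179. The DESeq2 run here called 138 lower, and its 1.6% counts both directions. Limma with library quality weights called CD24 only of the 8 (adjusted p = 0.0374), and 0.439% of all tested genes.

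**Figure D1:**
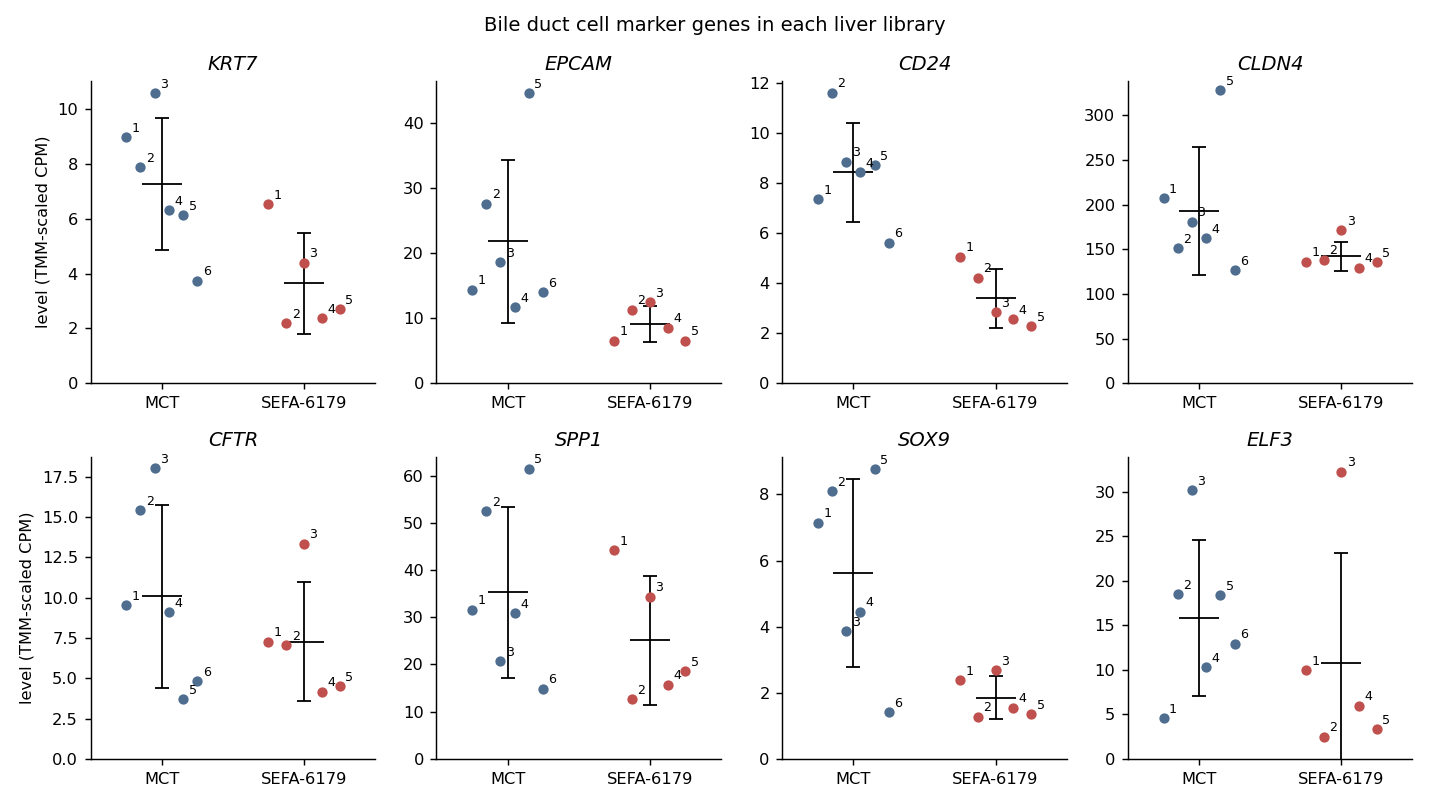
Level of each bile duct cell marker in each liver, as TMM-scaled CPM on a linear axis that starts at 0. Points are libraries numbered by replicate (6 MCT, 5 SEFA-6179), and bars are mean and SD; the lower SD bar of ELF3 in SEFA-6179 passes 0 and is not drawn further. CD24 is the 1 panel in which all SEFA-6179 points lie below all MCT points, and MCT replicate 6 sits among the SEFA-6179 points in several panels.

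KRT7 encodes keratin 7, an intermediate filament protein of simple duct-type epithelia that hepatocytes normally lack. The table places KRT7 (ENSSSCG00000038966) on chromosome 5 from 17555714 to 17571141, plus strand. Its level in SEFA-6179 replicates 1 to 5 was 6.53, 2.20, 4.39, 2.38 and 2.71 CPM, and with MCT it ran from 3.75 to 10.6 CPM with a median of 7.09. Replicates 2, 4 and 5 of SEFA-6179 lay below every MCT library, and replicates 1, 2 and 3 of MCT lay above every SEFA-6179 library, so the groups overlapped in the middle. The means were 3.64 ± 1.83 CPM (SD, n = 5) and 7.27 ± 2.41 CPM (SD, n = 6). This is a log2 fold change of -0.995 ± 0.33 (SE), with an edgeR adjusted p of 0.274.

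EPCAM is a homophilic adhesion molecule of epithelial surfaces, present on ducts and on immature liver cells. The table places EPCAM (ENSSSCG00000008429) on chromosome 3 from 93168852 to 93185653, minus strand. It was at 6.53, 11.3, 12.5, 8.57 and 6.53 CPM in SEFA-6179 replicates 1 to 5, and at 11.7 to 44.6 CPM with a median of 16.5 with MCT. Only the SEFA-6179 library of replicate 3 reached the MCT range, passing MCT replicate 4 alone. Leaving out either of these libraries therefore set the groups apart by construction. MCT replicate 5 stood at 44.6 CPM, with 27.6 CPM in the next library. EPCAM had a log2 fold change of -1.26 ± 0.34 (SE), with an edgeR adjusted p of 0.180. Without MCT replicate 5 it was -0.93, the smallest size among the fits that left out 1 library.

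CD24, a small glycoprotein anchored to the outer membrane by lipid, marks ducts and progenitor-like cells. The table places CD24 (ENSSSCG00000031023) on chromosome 1 from 73120508 to 73124342, minus strand. It was the member nearest to the threshold and the only one of the 8 with no overlap between groups. SEFA-6179 replicates 1 to 5 had 5.05, 4.22, 2.84, 2.56 and 2.28 CPM, from 89, 73, 55, 43 and 37 counts, and MCT libraries had 5.62 to 11.6 CPM with a median of 8.57. All 5 SEFA-6179 livers were below all 6 MCT livers, and the nearest libraries across the gap were SEFA-6179 replicate 1 (5.05) and MCT replicate 6 (5.62). Such a separation, with SEFA-6179 lower, was seen for 0.819% of all tested genes. The log2 fold change was -1.31 ± 0.25 (SE), from -1.86 to -0.77 as a 95% interval that is not adjusted for the number of genes. The edgeR adjusted p was 0.0539 (unadjusted p = 0.000138, rank 35 of 13671 genes).

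Leaving out libraries could not bring the CD24 groups together except through rescaling, so their staying apart was fixed by construction. They were apart in each of the 11 fits without 1 library. The same held without both MCT replicate 5 and SEFA-6179 replicate 4, the libraries that stood apart from their groups in earlier results. In the fits without 1 library the adjusted p of CD24 by edgeR ranged from 0.0374 without MCT replicate 6 to 0.168 without SEFA-6179 replicate 5. In the fit without both named libraries the adjusted p was 0.159.

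CLDN4 is a claudin, a strand-forming protein of tight junctions that seal duct epithelium. The table places CLDN4 (ENSSSCG00000007718) on chromosome 3 from 11039706 to 11053925, plus strand. It had the highest level of the 8 genes per length, 37.1 ± 4.34 FPKM (SD, n = 5) with SEFA-6179 and 50.6 ± 19.2 FPKM (SD, n = 6) with MCT. In CPM it was 136, 138, 171, 129 and 135 in SEFA-6179 replicates 1 to 5 and 127 to 328 with a median of 172 with MCT. The SEFA-6179 libraries lay close together, all below the MCT median, while MCT spread 2.59-fold from replicate 6 at the bottom to replicate 5 at the top. The log2 fold change was -0.44 ± 0.22 (SE), with a 95% interval from -0.91 to 0.024 and an edgeR adjusted p of 0.488. Without both MCT replicate 5 and SEFA-6179 replicate 4 it was -0.19.

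CFTR (ENSSSCG00000016626), the apical chloride channel through which duct cells drive bile fluid, lies on chromosome 18 from 28627728 to 28817950, minus strand. It was at 7.27, 7.05, 13.3, 4.17 and 4.50 CPM in SEFA-6179 replicates 1 to 5 and at 3.71 to 18.0 CPM with a median of 9.31 with MCT. The SEFA-6179 range lay wholly inside the MCT range. MCT replicate 5 held the lowest of all 11 values and MCT replicate 6 the fourth lowest. CFTR had a log2 fold change of -0.47 ± 0.42 (SE), with an edgeR adjusted p of 0.736. Its 95% interval, from -1.38 to 0.43, holds both no difference and a difference as large as that of KRT7. Without SEFA-6179 replicate 3 the value was -0.81, and without MCT replicate 3 it was -0.23.

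SPP1 encodes osteopontin, a secreted phosphoprotein made by duct cells and by macrophages. The table places SPP1 (ENSSSCG00000009216) on chromosome 8 from 131077786 to 131085340, minus strand. It was at 44.2, 12.7, 34.3, 15.7 and 18.5 CPM in SEFA-6179 replicates 1 to 5 and at 14.9 to 61.5 CPM with a median of 31.2 with MCT. The values of SEFA-6179 split, with replicates 1 and 3 above the MCT median and the other 3 below at least 5 of the 6 MCT libraries. The log2 fold change was -0.49 ± 0.41 (SE; 95% interval -1.39 to 0.41), with an edgeR adjusted p of 0.723. Leaving out SEFA-6179 replicate 1 gave -0.80, and leaving out both MCT replicate 5 and SEFA-6179 replicate 4 gave -0.13. Of the 11 tested macrophage markers 2 had a log2 fold change below 0, among them GPNMB at -0.65. Summed over the macrophage list, SEFA-6179 livers spanned 130 to 2800 CPM and MCT livers 387 to 1868 CPM, and its part in the SPP1 values was not tested.

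SOX9 (ENSSSCG00000017251), the transcription factor of early duct fate, lies on chromosome 12 from 8642158 to 8647315, minus strand. It had the largest fold of the 8 genes and the lowest counts. Its counts were 42, 22, 52, 26 and 22 in SEFA-6179 replicates 1 to 5, or 2.38, 1.27, 2.69, 1.55 and 1.36 CPM, and MCT libraries had 1.40 to 8.76 CPM with a median of 5.80. In 5 MCT livers SOX9 was above every SEFA-6179 liver, at 3.86 CPM or more. The sixth, MCT replicate 6 at 1.40 CPM from 24 counts, lay below 3 of the 5 SEFA-6179 livers. The log2 fold change was -1.60 ± 0.41 (SE; 95% interval -2.48 to -0.72), with an edgeR adjusted p of 0.148. As MCT replicate 6 was the only MCT library in the SEFA-6179 range, leaving it out set the groups apart by construction. The log2 fold change was then -1.80 and the edgeR adjusted p 0.0355, with 40 genes called in all.

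ELF3 is an epithelium-specific factor of the ETS family that also responds to inflammatory signals. The table places ELF3 (ENSSSCG00000010922) on chromosome 10 from 24237068 to 24243058, plus strand. It varied most of the 8 genes within a group, at 9.93, 2.48, 32.3, 5.95 and 3.33 CPM in SEFA-6179 replicates 1 to 5 and at 4.57 to 30.2 CPM with a median of 15.7 with MCT. SEFA-6179 replicate 3 was the highest of all 11 livers, and SEFA-6179 replicate 2, 13.0-fold lower, was the lowest. ELF3 had a log2 fold change of -0.55 ± 0.66 (SE; 95% interval -2.0 to 0.91), with an edgeR adjusted p of 0.817. Single libraries moved this value widely. Without SEFA-6179 replicate 3 the log2 fold change was -1.54 and the adjusted p 0.270 by edgeR, and DESeq2 then called ELF3. It was -0.26 without MCT replicate 3, -0.29 without SEFA-6179 replicate 2 and -0.32 without SEFA-6179 replicate 5.

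**Figure D2:**
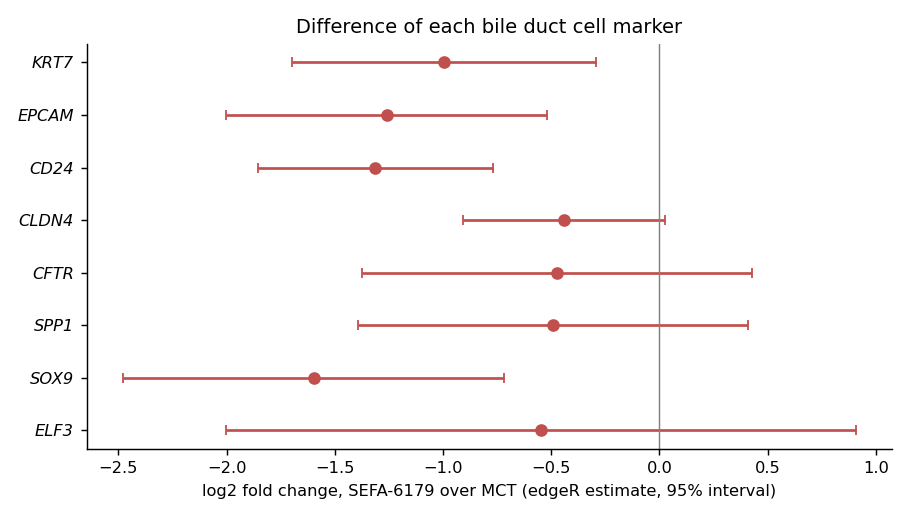
Log2 fold change of each marker, SEFA-6179 over MCT, as estimated by edgeR over 11 libraries, with 95% intervals that are not adjusted for the number of genes. All 8 estimates lie below 0; the intervals of KRT7, EPCAM, CD24 and SOX9 end below 0, and those of CLDN4, CFTR, SPP1 and ELF3 include it.

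Per length, the 8 genes covered a wide span of levels. In MCT livers the order by mean FPKM was CLDN4 (50.6), SPP1 (23.3), CD24 (9.70), EPCAM (4.53), ELF3 (4.49), KRT7 (2.81), SOX9 (1.53) and CFTR (1.44), a 35.2-fold span. CLDN4 was above SPP1, and SPP1 above CD24, in 6 of 6 MCT livers, whereas EPCAM and ELF3, and SOX9 and CFTR, changed places from liver to liver, with the first of each pair above in 3 of 6. In SEFA-6179 livers CLDN4, SPP1 and CD24 kept the top places at 37.1, 16.5 and 3.90 FPKM. SOX9 took the last place at 0.503 FPKM, below CFTR in 5 of 5 livers. The level of CLDN4 was 18.0 times that of KRT7 in MCT livers and 26.3 times in SEFA-6179 livers.

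Taking all markers of a liver side by side, 36 of the 40 SEFA-6179 values lay below the MCT median of their gene, and 1, ELF3 in replicate 3, lay above the MCT maximum. The 40 values come from 8 genes in 5 livers and are not separate observations, and the share over all tested genes was not computed. SEFA-6179 replicates 2, 4 and 5 were below the MCT median for all 8 genes, with a median over the genes of 42.9%, 38.5% and 33.6% of the MCT mean. Replicates 1 and 3 came closer to MCT, at 66.7% and 74.6%. In replicate 1 the highest were SPP1 and KRT7, at 125% and 89.8% of the MCT mean, and in replicate 3 they were ELF3, CFTR and SPP1, at 204%, 132% and 97.1%. Even in these 2 livers EPCAM, CD24 and SOX9 were at 60.0% of the MCT mean or less.

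The MCT livers were not uniform either. Replicate 6 was below the MCT median for all 8 genes, at a median of 58.0% of the MCT mean, and was the lowest MCT liver for 5 of them (KRT7, SOX9, SPP1, CD24 and CLDN4). For 6 of the 8 genes its level was no higher than that of the highest SEFA-6179 liver. MCT replicate 4 was also below the MCT median for all 8, at 85.4%. On the second principal component of all tested genes, which held 17.7% of the variance, MCT replicate 6 was at -11.9, the other MCT libraries ran from 1.61 to 53.6 and the SEFA-6179 libraries from -39.6 to -0.96. Without MCT replicate 6, edgeR called CD24 and SOX9, 2 of the 8, among 40 genes.

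MCT replicate 5 was at the other end, with the highest level of all 11 livers for EPCAM, SOX9, SPP1 and CLDN4 and a median of 136% of the MCT mean. It was also the liver apart from all others on the first principal component, at 83.1 where the others ran from -30.8 to 14.7. Without both this library and SEFA-6179 replicate 4, edgeR called 0 of the 8 (2 of the 8 at an unadjusted p below 0.05), 1 gene of all tested, and the median log2 fold change of the 8 was -0.70.

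**Figure D3:**
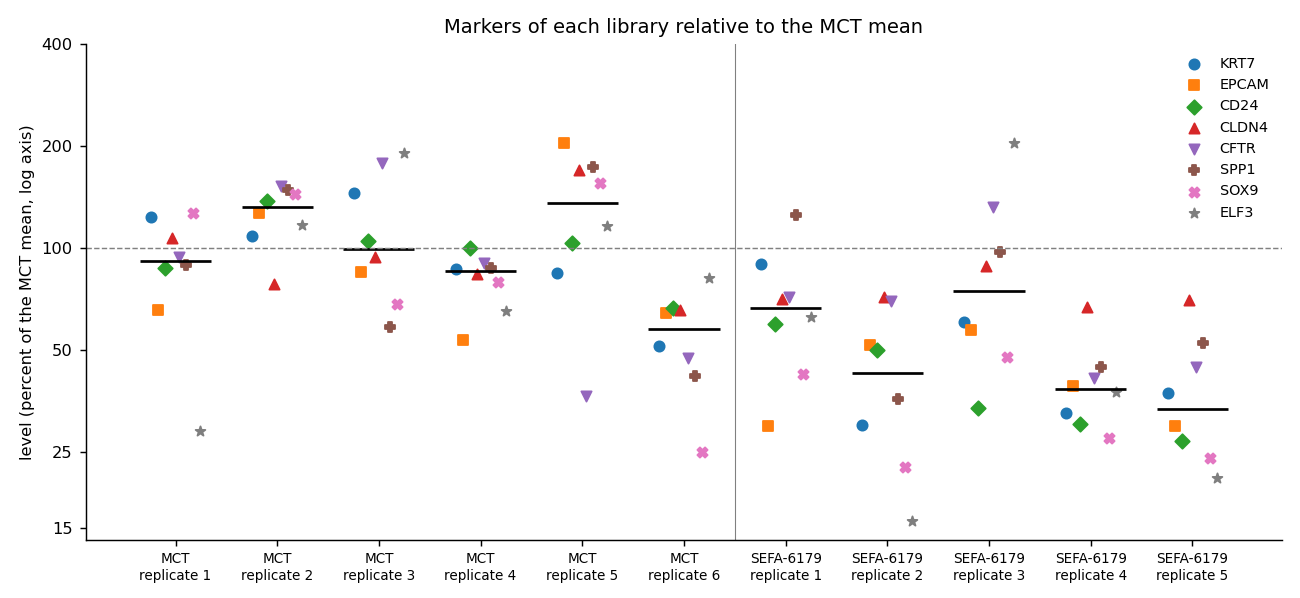
Each marker in each liver as a percent of the mean of that gene over the 6 MCT livers, on a log axis; black bars are the medians over the 8 genes and the dashed line is the MCT mean. SEFA-6179 replicates 2, 4 and 5 have all 8 symbols below 100, and MCT replicate 6 (median 58.0%) lies below SEFA-6179 replicates 1 (66.7%) and 3 (74.6%).

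To see which genes followed the same course over the 11 livers, the log2 CPM of each gene was centred on its own mean and compared by the root mean square (RMS) difference, with 11767 named genes of at least 10 mean counts as candidates. The profiles include the difference between groups, so a small distance is a description and says nothing of shared control. KRT7 and CD24 were each other's nearest marker, at an RMS difference of 0.47 where the distance of KRT7 from a flat profile was 0.73. ANXA4, an annexin listed separately here as a duct epithelium gene, came next after SYNPO and RHBDF2 for KRT7, and after GSN and GLI2 for CD24. The nearest to KRT7 was SYNPO, at 0.34, and the nearest to CD24 was GSN, the actin-severing protein gelsolin, at 0.31.

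For SOX9 the nearest candidates were PARD6B, a cell polarity protein, at 0.39, then PXYLP1 and RAB3D. Of the markers SPP1 came nearest to SOX9, at rank 18 of 11767, and KRT7 next, at rank 23. The likeness was less close from the other side, where SOX9 was at rank 374 from SPP1 and 389 from KRT7. For CFTR the second nearest candidate was PKHD1, which encodes fibrocystin of the duct cell's primary cilium, at 0.35, after the complement gene C3 at 0.34. The nearest to EPCAM was PSRC1 at 0.36, and the nearest to SPP1 was ALG8 at 0.32. CLDN4 was closest to GTF2F1 at 0.14, and no other marker came nearer to it than 0.56, which is farther than the 0.38 of a flat profile. ELF3 was nearest to SLC44A4, at 0.56, and nearest among the markers to KRT7, at 0.95.

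Other genes of bile duct cells were taken from 4 lists that hold none of the 8 markers: structure and surface, secretion and receptors, the primary cilium, and the factors of duct fate. Of 63 listed genes 55 were matched in the table and 50 tested. None passed by edgeR, 31 had a log2 fold change below 0 and 19 above, and the median was -0.18. DESeq2 called 3, all lower, where it called 250 of 15581 genes (1.6%) in either direction. At an unadjusted p below 0.05 by edgeR 9 were lower and 0 higher, where 754 and 717 of all 13671 tested genes were. The structure and surface list held 5 of the 9 lower genes.

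The structure and surface list resembled the 8 markers in size, with 9 of 12 tested genes below 0 and a median of -0.79. CLDN7, another tight junction claudin, was at 17.0, 6.87, 36.8, 41.9 and 18.5 CPM in SEFA-6179 replicates 1 to 5 and at 47.8 to 131 CPM with MCT, so that the groups did not overlap. Its log2 fold change was -1.73 ± 0.41 (SE; edgeR adjusted p = 0.139, DESeq2 adjusted p = 0.000933). DESeq2 also called TM4SF4, a tetraspanin-like surface protein, at 234 ± 92.6 against 500 ± 169 CPM, and ANXA4, at 18.2 ± 4.07 against 32.3 ± 9.25 CPM, which edgeR did not call (adjusted p = 0.146 and 0.161). CLDN3, a further claudin, had a log2 fold change of -0.75 and PIGR, which carries immunoglobulin A into bile, one of -1.41 (edgeR adjusted p = 0.283 and 0.356). The summed level of the list was 276 to 527 CPM in SEFA-6179 livers and 582 to 976 CPM in MCT livers, but TM4SF4 alone made up 60.5% and 63.8% of it. LAMB3, ITGB4 and PROM1, the last encoding the progenitor marker prominin 1, lay above 0, with PROM1 at 0.22. KRT19 and GGT1 were not analysed here.

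Genes of duct secretion lay nearer to 0, with 8 of 11 below 0 and a median of -0.18. The water channel AQP1, which endothelium also makes, had a log2 fold change of 0.16. The bicarbonate exchanger SLC4A2 was at 0.19 and the chloride channel ANO1 at 0.35, while CA2, a carbonic anhydrase, was at -1.18 (15.1 ± 7.84 against 34.3 ± 17.7 CPM, edgeR adjusted p = 0.320). SCTR, the secretin receptor upstream of CFTR, was at 0.795 ± 0.496 against 1.57 ± 0.991 CPM (edgeR adjusted p = 0.534). Of 10 tested cilium genes 5 were below 0, with a median of -0.15. PKHD1 was at 3.79 ± 0.655 against 6.13 ± 3.40 CPM (edgeR adjusted p = 0.543), and IFT88, which all ciliated cells use, had a log2 fold change of 0.0057.

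The duct fate list was centred near 0, with 9 of 17 below 0 and a median of -0.024. HES1, a Notch target, was at 7.60 to 10.5 CPM in SEFA-6179 livers and 10.8 to 18.6 CPM in MCT livers, with no overlap and a log2 fold change of -0.59 ± 0.17 (SE; edgeR adjusted p = 0.200). The Notch ligand JAG1 had a log2 fold change of -0.073 and the receptor NOTCH2 one of -0.024. Among the Hippo pathway genes, the co-activator WWTR1 was at -0.57 (edgeR adjusted p = 0.225), and the targets CCN1 and CCN2 were at 0.27 and 0.14.

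The junction genes CDH1 and CXADR, which belong to epithelia at large, were called lower by edgeR. CDH1, the adhesion protein E-cadherin, was at 400 ± 84.6 (SD, n = 5) against 779 ± 107 CPM (SD, n = 6), a log2 fold change of -0.96 (edgeR adjusted p = 0.0478). CXADR, a junction protein that viruses use as a receptor, was at 10.3 ± 3.08 against 24.7 ± 6.16 CPM, a log2 fold change of -1.26 (edgeR adjusted p = 0.0398). Neither gene's groups overlapped, a separation with SEFA-6179 lower that 0.819% of all tested genes showed. Without SEFA-6179 replicate 5, or without MCT replicate 4, edgeR called 0 of all tested genes, so neither call held there.

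**Figure D4:**
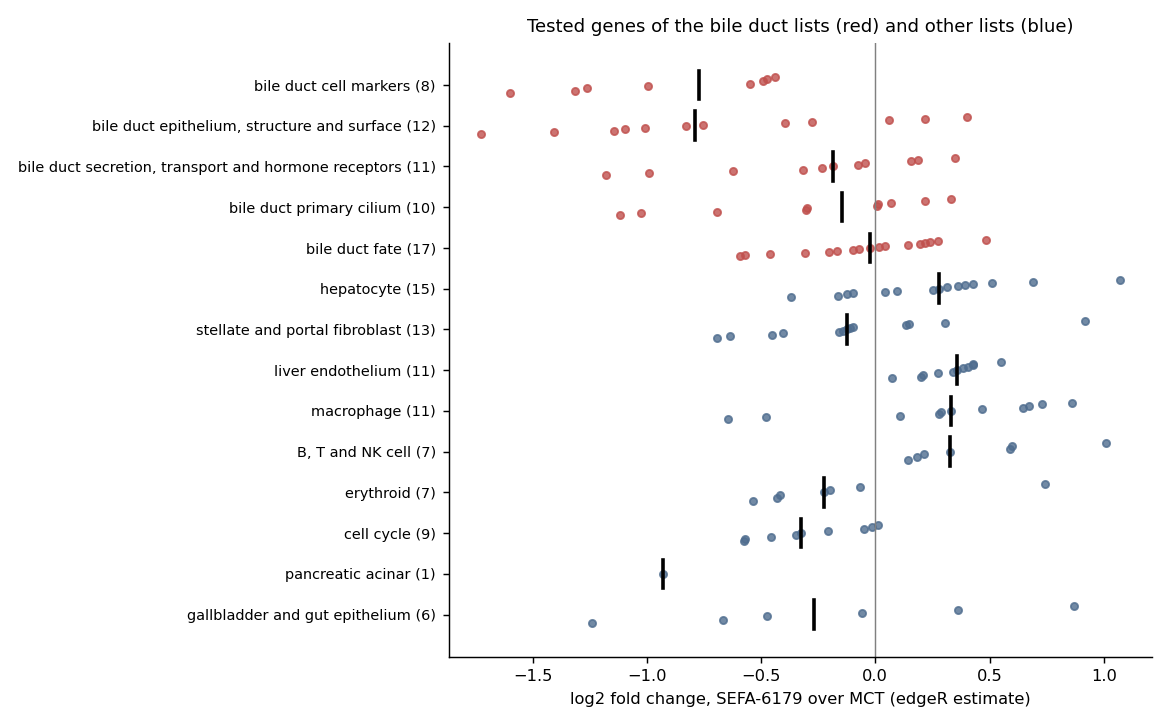
Log2 fold change, SEFA-6179 over MCT, of each tested gene in the 5 bile duct lists (red) and 9 lists for other cell types or states (blue), with the number tested in brackets and a black bar at the median. The 8 markers (median -0.77) and the structure and surface list (median -0.79) lie mostly left of 0, and the duct fate list (median -0.024) is centred near it.

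Other cell types that a piece of liver can hold were read from 9 lists in the same fit. Of their 80 tested genes edgeR called 0, and DESeq2 called 1, PCK1, higher. At an unadjusted p below 0.05 by edgeR 6 were lower and 8 higher, where 754 and 717 of all 13671 tested genes were. Hepatocyte genes were above 0 in 11 of 15 cases (median 0.28); PCK1 had the smallest p, with a log2 fold change of 0.69 (edgeR adjusted p = 0.188), and the most abundant, ALB and TF, were at 0.25 and -0.37. All 11 tested endothelial genes lay above 0, with a median of 0.36 and VWF at 0.55, as did all 7 tested lymphocyte genes, with a median of 0.33 and KLRB1 at 1.01. Macrophage genes were above 0 in 9 of 11 cases (median 0.33), with C1QA at 0.86 and TYROBP at 0.47, and erythroid genes below 0 in 6 of 7 (median -0.23), with HBB at 0.74. Stellate cell and portal fibroblast genes were below 0 in 9 of 13 cases (median -0.12), with COL1A2 at -0.69, and cell cycle genes in 8 of 9 (median -0.33), with PLK1 at -0.57. The part of these shifts in the marker levels was not tested.

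Pieces of liver may also carry gallbladder or pancreas. The gallbladder and gut list summed to 18.0 to 49.8 CPM in SEFA-6179 livers and to 28.0 to 98.6 CPM in MCT livers, and 4 of its 6 tested genes lay below 0. VIL1, which encodes the microvillus protein villin that ducts also make, was most of that sum, at 19.7 ± 10.4 against 46.7 ± 29.7 CPM. Of the other 11 genes of the list in the table, MUC2, TFF1, TFF2, TFF3, CDX1 and FABP2 averaged between 0.455 and 2.55 counts per library and were not tested. CDX2, LGALS4, CDH17, AGR2 and MUC13 averaged 11.5, 12.9, 21.6, 57.8 and 110 counts, with log2 fold changes of -0.48, 0.87, -0.67, -0.059 and 0.36. Their part in the marker levels was not tested. The pancreatic acinar list reached at most 2.46 CPM in a SEFA-6179 liver and 6.73 CPM in an MCT liver, nearly all of it CPA1.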

How the data were processed

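Per the file headers, the deposited table holds raw counts and FPKM for 11 libraries and the authors' normalized signal (count times 1 factor per library). Group means, log2 fold change, p-value and adjusted p-value in it are also the authors' deposited values. Aligner and counter names come from the submitters' processing notes, which give featureCounts 1.5.0-p3, HISAT2 2.0.5, DESeq2 1.20.0 and StringTie 1.3.3b, with no roles. Build and strand setting: not given in the sources used here. RNA was extracted with Trizol from frozen liver, per the labels.

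Counts were tested with edgeR 4.0.16 (R 4.3.3): filterByExpr with a minimum count of 10, TMM scaling, robust quasi-likelihood test of SEFA-6179 against MCT over 11 libraries, two-sided, Benjamini-Hochberg over 13671 genes. Standard errors come from the fold change and F statistic. DESeq2 1.42.0 and limma 3.58.1 were alternatives. Scripts were tested on simulated data. Symbols came from the table, or by identifier from a reference list for 779 genes. No 2 libraries were copies: chi-square per degree of freedom was at least 41.9 for every pair. P-values set the difference between groups against the spread between these libraries.

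The 8 markers and all gene lists were chosen with earlier results of these data known. Named are the 8 markers, in the 4 other duct lists the genes called or apart between groups and a few chosen by name (of which some are not reported here), the smallest p and up to 2 of the highest levels of each other list, the 3 nearest profiles per marker, and CDH1 and CXADR. CLDN3, PIGR, CA2, SLC4A2, ANO1, IFT88, WWTR1, NOTCH2, CCN1, CCN2, LAMB3, ITGB4, GPNMB, TM4SF4 and ANXA4 (as list genes), and the gut and pancreas genes, were named after their values were seen. A search of promoter sequences for motifs was planned and not made, because no sequence was used here.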

Additional observations from a re-analysis of the deposited data

Results flagged for a closer look

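Of 16 groups of values (8 markers in SEFA-6179 and in MCT), 2 had 1 value set well off from the others, where chance gives about 1 in 20, or 0.8. Both are SEFA-6179 replicate 3. CLDN4 was at 171 CPM there and at 129 to 138 CPM in the other 4 SEFA-6179 libraries. ELF3 was at 32.3 CPM there and at 2.48 to 9.93 CPM in the other 4. The same library had the highest summed macrophage level, 2800 CPM, against 130 to 1940 CPM in the other 10 libraries. Its part in the 2 values was not tested.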

How the results depend on the processing

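All 8 markers kept a log2 fold change below 0 in all 20 alternatives. By edgeR 0 markers passed the threshold with all libraries (4 at an unadjusted p below 0.05). The number was 3 with DESeq2 (CD24, SOX9 and EPCAM), 1 with limma and library weights and 1 with no low-count filter (both CD24), and 0 to 2 when 1 library was left out, with CD24 and SOX9 called without MCT replicate 6. With DESeq2 and 1 library left out, an alternative chosen after seeing the data, it was 1 (CD24, without SEFA-6179 replicate 5 or MCT replicate 2) to 4 (without SEFA-6179 replicate 3 or MCT replicate 6). Over all genes DESeq2 called 148 of 15942 without SEFA-6179 replicate 5 and 186 of 15919 without MCT replicate 2. It called 318 of 14680 without SEFA-6179 replicate 3 and 368 of 14685 without MCT replicate 6, so the calls over all genes also rose. The number of markers with no overlap between groups was 1 to 2 when 1 library was left out. EPCAM joined when SEFA-6179 replicate 3 or MCT replicate 4 was dropped and SOX9 when MCT replicate 6 was, both by construction. Groups separate more easily with fewer libraries, and the share over all tested genes in those fits was not computed. The median log2 fold change of the 8 ran from -1.16 without SEFA-6179 replicate 3 to -0.64 without SEFA-6179 replicate 4.

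Over all genes edgeR called 30, and the number was 250 with DESeq2, 60 with limma, 8 with the replicate block, 6 with EIF1AY (a Y-linked gene) added as covariate, 1 without both MCT replicate 5 and SEFA-6179 replicate 4, and 0 to 53 without 1 library. Scaling by library totals moved the median of all genes to -0.11 and the calls to 24, of which 16 were lower against 14 of 30 with TMM; the median of the 8 was then -0.86. Replicate numbers did not pair the livers: the correlation of same-numbered libraries' deviations ran from -0.15 to 0.20, above 0.1 in 1 of 5 pairs, and 1 of 5 SEFA-6179 libraries correlated best with its own number. With the replicate block over replicates 1 to 5, 0 markers passed, against 2 in the same 10 libraries without it, and the median was -1.09. SOX9 had the lowest counts of the 8, from 22 to 187 per library.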

Other observations

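MCT replicate 5, chosen after its values were seen, held duct genes of opposite extremes. It had the highest level of all 11 livers for EPCAM, SOX9, SPP1 and CLDN4, and also for CLDN7, at 131 CPM. CFTR, at 3.71 CPM, and PKHD1, at 1.97 CPM, were the lowest of all 11 livers. The summed levels of the secretion list, 132 CPM, and of the primary cilium list, 82.3 CPM, were also the lowest, against at least 172 CPM and 102 CPM in the other 10 livers. This liver also lay apart on the first principal component of all tested genes, at 83.1 where the others ran from -30.8 to 14.7. The share of all tested genes with an extreme level in it was not computed. The values come from 1 liver and have no replicate.

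CFTR and PKHD1 shared their order in MCT livers, with replicate 3 highest (18.0 and 10.4 CPM), replicate 2 next (15.4 and 8.14 CPM), and replicates 5 and 6 lowest (3.71 and 1.97 CPM, and 4.80 and 2.22 CPM). PKHD1 had been found as the second nearest profile to CFTR, after C3, over these same livers. The shared order restates that likeness and is no separate result. In SEFA-6179 livers PKHD1 stayed between 2.80 and 4.31 CPM, while CFTR ran from 4.17 to 13.3 CPM.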
